A study of Rattus norvegicus with 12 samples.

Results

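Inward-rectifier and tandem-pore (K2P) potassium channels were followed in cultured ventricular cardiomyocytes of newborn rats under mechanical stretch. The members were the 10 genes Kcnj2, Kcnj3, Kcnj5, Kcnj8, Kcnj11, Kcnj12, Kcnk2, Kcnk3, Abcc8 and Abcc9, taken by the gene name of the probe in the scanner files, out of 22079 named genes on the array. They had 16 probes, and 14 of these, covering all 10 genes, passed the filter on dim signals. Per the labels, isolated cells were kept for 24 h in medium with 10% fetal calf serum and then stretched in both directions in pulses, to an elongation of 20%, on collagen-coated silicone membranes. The 4 groups were unstretched cells on the same kind of membrane (control) and cells stretched for 2 h, 6 h or 24 h, with 3 cultures called biological replicates in each and 1 array per culture. All 3 stretch times were compared with the same 3 control cultures, for which the labels give no culture time, so time in culture and stretch cannot be told apart. The labels do not say whether the cultures came from separate isolations, and the p-values measure the spread between these cultures.

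Inward rectifiers pass potassium more easily into the cell than out of it. In the ventricle the IK1 channels, built from Kcnj2 and Kcnj12 products, hold the resting potential and carry the last phase of repolarization. The KACh channel, a complex of Kcnj3 and Kcnj5 products that is best known from atria and the sinus node, opens when acetylcholine or adenosine receptors release G protein beta-gamma subunits. KATP channels close when ATP is plentiful and combine a pore (Kcnj11 or Kcnj8) with a sulfonylurea receptor (Abcc8 or Abcc9), with Kcnj11 and Abcc9 as the textbook pair of the ventricular surface membrane and Kcnj8 and Abcc9 as that of vascular muscle. K2P channels carry background current: Kcnk2 encodes TREK-1, which opens when the membrane is stretched, and Kcnk3 encodes TASK-1, which closes in acid.

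Signals are given as percent of the 75th percentile of their array, which lay between 1142 and 1671 intensity units. Between 64.7 and 70.6% of the spots of an array were well above background, and 0 were saturated. The controls, the 2 h arrays and 6 h replicates 1 and 2 lay on slide 1, and 6 h replicate 3 and the 24 h arrays on slide 2, so that only the 6 h group ties the slides together. All 12 cardiomyocyte markers were above background in every group. At 24 h 10 of the 12 were lower than in controls and 1, Myl2, was higher (0 lower and 1 higher with spike-in scaling, 1 lower and 0 higher with slide as a block), and their summed signal went from 80830-87730% to 65750-71290%. Of 9 macrophage and leukocyte markers tested, 9 were lower at 24 h, with a summed signal of 1608-1617% in controls and 569-660% at 24 h. Of 10 fibroblast markers 8 were lower (16850-18060% and 12140-14080%), but 3 with the array median, 0 with spike-in scaling and 5 with slide as a block, with 1, 1 and 0 higher. Of 10 smooth muscle and pericyte markers 5 were lower and 3 higher (6797-6971% and 6818-7039%), but 1 and 4 with spike-in scaling and 3 and 0 with slide as a block. Among all genes tested, 16.2% were higher and 31.7% lower at 24 h in the main setting. Of the 14376 genes, 5579 were higher and 2202 lower with the array median, and 6728 and 630 with spike-in scaling. With slide as a block 2045 were called, 1548 of them lower. The part of the marker shifts in the channel results was not tested, and in bulk RNA fewer cells of a type and less RNA per cell cannot be told apart.

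The array reads each gene with probes of 60 bases, placed by the array design on rat genome build rn4. The probes of Kcnj2 (chr10:100576110-100576169, plus strand) and Kcnj12 (chr10:47214419-47214478, plus strand) lie in corresponding stretches of these related genes and are shown because the results compare both; capitals mark the positions at which their bases are identical, which are 33 of 60.
Kcnj2: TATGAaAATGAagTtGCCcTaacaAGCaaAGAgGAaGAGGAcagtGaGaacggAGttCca
Kcnj12: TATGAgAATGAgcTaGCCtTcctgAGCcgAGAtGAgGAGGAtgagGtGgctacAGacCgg
The probes of Kcnj11 (chr1:96616585-96616644, minus strand) and Abcc8 (chr1:96622574-96622633, minus strand) come from neighbouring genes, and each ends in a stop codon, in capitals, with an open reading frame before it.
Kcnj11: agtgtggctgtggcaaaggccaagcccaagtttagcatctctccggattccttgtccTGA
Abcc8: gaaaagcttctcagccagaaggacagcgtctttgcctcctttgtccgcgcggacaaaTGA
The Kcnj3 probe used (chr3:37256278-37256337, plus strand) and the less bright Abcc9 probe at chr4_random:1918573-1918632 (plus strand) also hold an open reading frame over their whole length, as do most member probes. They are shown because the KACh and KATP results concern these genes. The main Abcc9 values come from a brighter probe that is not shown.
Kcnj3: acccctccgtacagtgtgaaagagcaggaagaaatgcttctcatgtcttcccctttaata
Abcc9: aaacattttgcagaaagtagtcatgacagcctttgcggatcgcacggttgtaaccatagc

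Relative to the 75th percentile, the channel genes were mostly lower with longer stretch, and Kcnj8 was the 1 member with a positive, though uncalled, value at 24 h. At 2 h 1 of the 10 members was higher than in controls (Kcnj5) and 0 were lower, where 9.20% of the 14376 genes tested were called in either direction (limma, Benjamini-Hochberg adjusted p below 0.05; 3.10% higher and 6.10% lower). At 6 h 5 of 10 were lower (Kcnj12, Kcnj3, Kcnj11, Abcc9 and Kcnk2) and 0 higher, against 16.8% of all genes called, with 5.06% called higher and 11.7% called lower. At 24 h 8 of 10 were lower and 0 higher, against 47.9% of all genes called. Of all genes, 16.2% were called higher and 31.7% called lower. Kcnj8 and Kcnk3 were not called. The 8 include Kcnj2, which was not well above background on any 24 h array and passed the filter through other groups. The arrays of the groups compared did not overlap for 3 members at 2 h, 7 at 6 h and 9 at 24 h, against 28.6, 39.4 and 58.9% of all genes. Over probes, 1 of the 14 kept was called at 2 h, higher, and 5 at 6 h and 12 at 24 h, all lower, against 7.11, 13.8 and 44.5% of all 18997 kept probes. The 12 include the Kcnj2 probe and the dimmer probes of Abcc9 and Kcnj3, which passed the filter through other groups and not through 24 h. The median log2 change of the 10 members was -0.08 at 2 h, -0.32 at 6 h and -0.70 at 24 h, and that of all genes was -0.01, -0.05 and -0.08. With slide as a block 5 members were called at 24 h, all lower (Kcnj12, Kcnj3, Kcnj11, Abcc8 and Abcc9), and 2045 of the 14376 genes were called, 1548 of them lower. Scaled by spike-in spots 5 members were lower and 1 higher at 24 h, where 630 genes were lower and 6728 higher, and 0 members were called at 6 h; that scaling put the median of all genes at 0.30 at 6 h and 0.37 at 24 h, and scaling by the array median put it at 0.11 at 24 h.

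**Figure D1:**
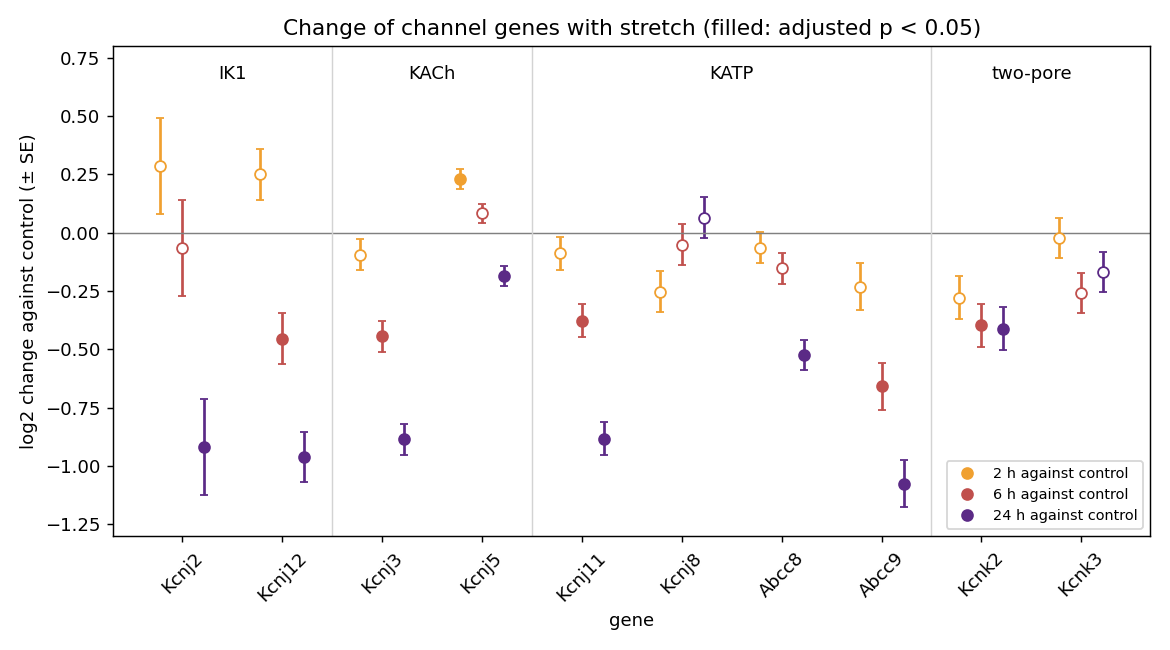
Log2 change of each channel gene against control at 2 h, 6 h and 24 h of stretch, relative to the 75th percentile of the array, with the standard error of the model (3 arrays per group). Filled points have an adjusted p below 0.05. At 24 h 8 of the 10 genes are filled and below 0, among them Kcnj2, whose 24 h signals were near background.

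The IK1 gene Kcnj12 was at first higher and then fell below its control level. Its signal was 17.0, 13.2 and 17.0% on the control arrays, 18.0, 19.1 and 18.7% at 2 h, 11.4, 10.2 and 12.8% at 6 h and 7.38, 8.54 and 8.22% at 24 h. Every 2 h array lay above every control array, and every 6 h and 24 h array below. The log2 change was 0.25 ± 0.11 (SE) at 2 h, which did not pass the test (adjusted p = 0.185), -0.45 ± 0.11 at 6 h (0.0180) and -0.96 ± 0.11 at 24 h (5.88e-05), when the signal was 1.95-fold lower than in controls. The 6 h call ended without control replicate 1 (-0.39, adjusted p = 0.0570) or 3 (-0.39, 0.0683) and without 6 h replicate 1 (-0.45, 0.0572) or 2 (-0.37, 0.0583). From 2 h to 6 h Kcnj12 fell by 0.70 ± 0.11 (0.00700) and from 6 h to 24 h by 0.51 ± 0.11 (0.00694).

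Kcnj2, the other IK1 gene, was close to the background of the array. Its signal was 1.56, 1.81 and 1.87% on the control arrays, 1.62, 3.10 and 1.90% at 2 h, 1.86, 1.73 and 1.43% at 6 h and 0.863, 0.851 and 1.06% at 24 h. All 24 h arrays lay below all others, and the high value at 2 h came from replicate 2. The probe was well above background on 3 of 3 arrays of the control and 6 h groups, on 2 of 3 at 2 h and on 0 of 3 at 24 h. The change was 0.29 ± 0.21 at 2 h (adjusted p = 0.431), -0.06 ± 0.21 at 6 h (0.865) and -0.92 ± 0.21 at 24 h (0.00422). The measured 24 h signal was 1.89-fold lower. The lowest signal of a spot well above background was 0.963, 1.33 and 0.987% on the 24 h arrays. With values under it set to it, Kcnj2 was 1.57-fold lower. That is not a lower limit, because replicate 3, at 1.06%, exceeded the lowest such spot of its array without being well above background. The size depended on the background correction: -0.56 with normexp and -0.19 in the authors' series matrix (adjusted p = 0.158). With slide as a block it was -0.59 (0.317) and with quantile normalization -0.47 (0.114), neither past the threshold.

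Both KACh subunit genes were lower at 24 h, where 31.7% of all genes were, and Kcnj3 by more than Kcnj5. The signal of Kcnj3 was 25.9, 25.2 and 21.8% on the control arrays, 22.2, 23.0 and 22.9% at 2 h, 17.6, 18.2 and 17.7% at 6 h and 13.7, 12.4 and 13.3% at 24 h. The control and 2 h arrays overlapped, and the 6 h and 24 h arrays lay below them in that order without overlap. The change was -0.09 ± 0.07 at 2 h (adjusted p = 0.414), -0.44 ± 0.07 at 6 h (0.00204) and -0.89 ± 0.07 at 24 h (3.60e-06), a 1.85-fold lower signal. A dimmer Kcnj3 probe, well above background on 3 control arrays but on only 1 at 24 h, was also lower at 24 h (-0.74 ± 0.16, 0.00392 among probes) but not at 6 h (0.17 ± 0.16, 0.539). It passed the filter through controls alone, so its 24 h value is no separate evidence of a lower signal. Averaged over both probes the 6 h change of Kcnj3 was -0.14 (0.349).

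Kcnj5 was the member that was higher at 2 h. Its bright probe gave 475, 490.2 and 475% on the control arrays, 568, 560.1 and 561% at 2 h, 514, 489.9 and 521% at 6 h and 433, 409 and 426% at 24 h. The 2 h arrays lay above and the 24 h arrays below all others, while the 6 h and control arrays overlapped. The change was 0.23 ± 0.04 at 2 h (adjusted p = 0.00929), 0.08 ± 0.04 at 6 h (0.208) and -0.18 ± 0.04 at 24 h (0.00463), a 1.17-fold higher and then a 1.14-fold lower signal. The 2 h call ended when only these 2 groups were fitted (0.0603) and with spike-in scaling (0.27, adjusted p = 0.943). The sign at 24 h depended on the scaling: the change was 0.01 with the array median, 0.26 with spike-in spots and 0.03 with normexp, none past the threshold. A second Kcnj5 probe gave 0.27 ± 0.10 at 2 h (0.135 among probes) and -0.40 ± 0.10 at 24 h (0.00736). The bright probe (chr8:31934385-31934444, minus strand) and the second one (chr8:32083323-32083382, minus strand) span 148998 bases of rn4, while RefSeq gives the gene a length of 29600 bases, so whether the bright probe reads the Kcnj5 transcript alone was not settled.

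Of the KATP genes, 3 of 4 were lower at 24 h, where 31.7% of all genes were: the pore gene Kcnj11 and both sulfonylurea receptor genes. The signal of Kcnj11 was 20.0, 20.7 and 23.0% on the control arrays, 18.8, 20.3 and 20.7% at 2 h, 16.5, 15.0 and 17.7% at 6 h and 11.4, 11.6 and 11.5% at 24 h. The 6 h arrays lay below all control and 2 h arrays, and the 24 h arrays, which were within 0.19 percentage points of each other, lay below all of these. The change was -0.09 ± 0.07 at 2 h (adjusted p = 0.480), -0.38 ± 0.07 at 6 h (0.00620) and -0.88 ± 0.07 at 24 h (6.10e-06), a 1.84-fold lower signal. The 24 h call of Kcnj11 held in all 24 settings that gave a value, with changes between -1.05 and -0.44.

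Abcc9, the receptor subunit known from ventricular muscle and vessels, had a drop of 1.08 at 24 h, against 0.96 for Kcnj12; with slide as a block the values were -1.16 and -1.21. Its signal was 53.8, 61.1 and 52.3% on the control arrays, 41.1, 53.4 and 48.4% at 2 h, 32.7, 36.6 and 36.6% at 6 h and 26.3, 28.6 and 24.5% at 24 h. The 2 h arrays reached into the control range, and the 6 h and 24 h arrays did not. The change was -0.23 ± 0.10 at 2 h (adjusted p = 0.187), -0.66 ± 0.10 at 6 h (0.00255) and -1.08 ± 0.10 at 24 h (1.69e-05), a 2.11-fold lower signal. A pair of dimmer Abcc9 probes gave -1.05 ± 0.23 (0.00457 among probes) and -0.96 ± 0.21 (0.00446) at 24 h, each well above background on 3 control arrays and on 1 array at 24 h. The first passed the filter through the control and 2 h groups and the second through controls alone. Their 24 h values lie near the background, so they are no separate evidence of a lower signal. At 6 h these probes gave -0.78 ± 0.23 (0.0504) and -0.50 ± 0.21 (0.148).

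Abcc8, the sulfonylurea receptor known from pancreatic beta cells and also present in heart, changed later and by less. Its signal was 159.9, 156 and 161% on the control arrays, 144, 161 and 152% at 2 h, 146, 133 and 149.6% at 6 h and 115, 102 and 115% at 24 h. The 6 h arrays lay below all control arrays but overlapped the 2 h arrays, and the 24 h arrays lay below all others. The change was -0.06 ± 0.07 at 2 h (adjusted p = 0.593), -0.15 ± 0.07 at 6 h (0.134) and -0.52 ± 0.07 at 24 h (1.10e-04), a 1.44-fold lower signal, but -0.08 with spike-in scaling (0.712).

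Kcnj8, the pore gene known from vascular muscle and pericytes, did not pass the test at any time. Its signal was 10.3, 12.8 and 12.6% on the control arrays, 10.3, 9.55 and 9.99% at 2 h, 11.4, 10.6 and 12.3% at 6 h and 11.8, 12.2 and 13.3% at 24 h. The groups overlapped with controls at each time. The change was -0.25 ± 0.09 at 2 h (adjusted p = 0.106), -0.05 ± 0.09 at 6 h (0.734) and 0.06 ± 0.09 at 24 h (0.572). Without control replicate 1, the lowest control, Kcnj8 was called lower at 2 h (-0.35, 0.0254). Scaling moved its 24 h value across the threshold: it was called higher with the array median (0.26, 0.0302), quantile normalization (0.25, 0.0465) and spike-in spots (0.51, 0.0109), and was -0.10 with slide as a block (0.729).

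Kcnj8 and Abcc9 are neighbouring coding genes on one strand of chromosome 4 in RefSeq (GRCr8), and their upstream sequences are shown because the signals of these KATP partners parted. The 150 bases before each start lie at chr4:177246549-177246698 for Kcnj8 and chr4:177386349-177386498 for Abcc9, both on the minus strand. Capitals mark GGGCGG, the core of the GC box, searched on both strands.
Kcnj8 upstream: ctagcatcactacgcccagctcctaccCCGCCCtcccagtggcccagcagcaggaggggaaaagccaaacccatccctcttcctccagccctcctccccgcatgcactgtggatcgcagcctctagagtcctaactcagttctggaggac
Abcc9 upstream: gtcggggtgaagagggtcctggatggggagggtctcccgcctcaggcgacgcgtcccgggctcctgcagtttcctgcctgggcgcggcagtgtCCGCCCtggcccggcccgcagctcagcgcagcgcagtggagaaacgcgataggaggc
Within 250 bases upstream both genes held GGGCGG, as did 30.5% of 33469 RefSeq promoters of that length, and neither held TATAAA (12.9%), AGATAA (10.3%) or the MEF2 motif (3.4%). RefSeq promoters were matched for 5 members in 6 entries, and GGGCGG was present in 4 of these entries. The match is a description of letters and not of a binding site.

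**Figure D2:**
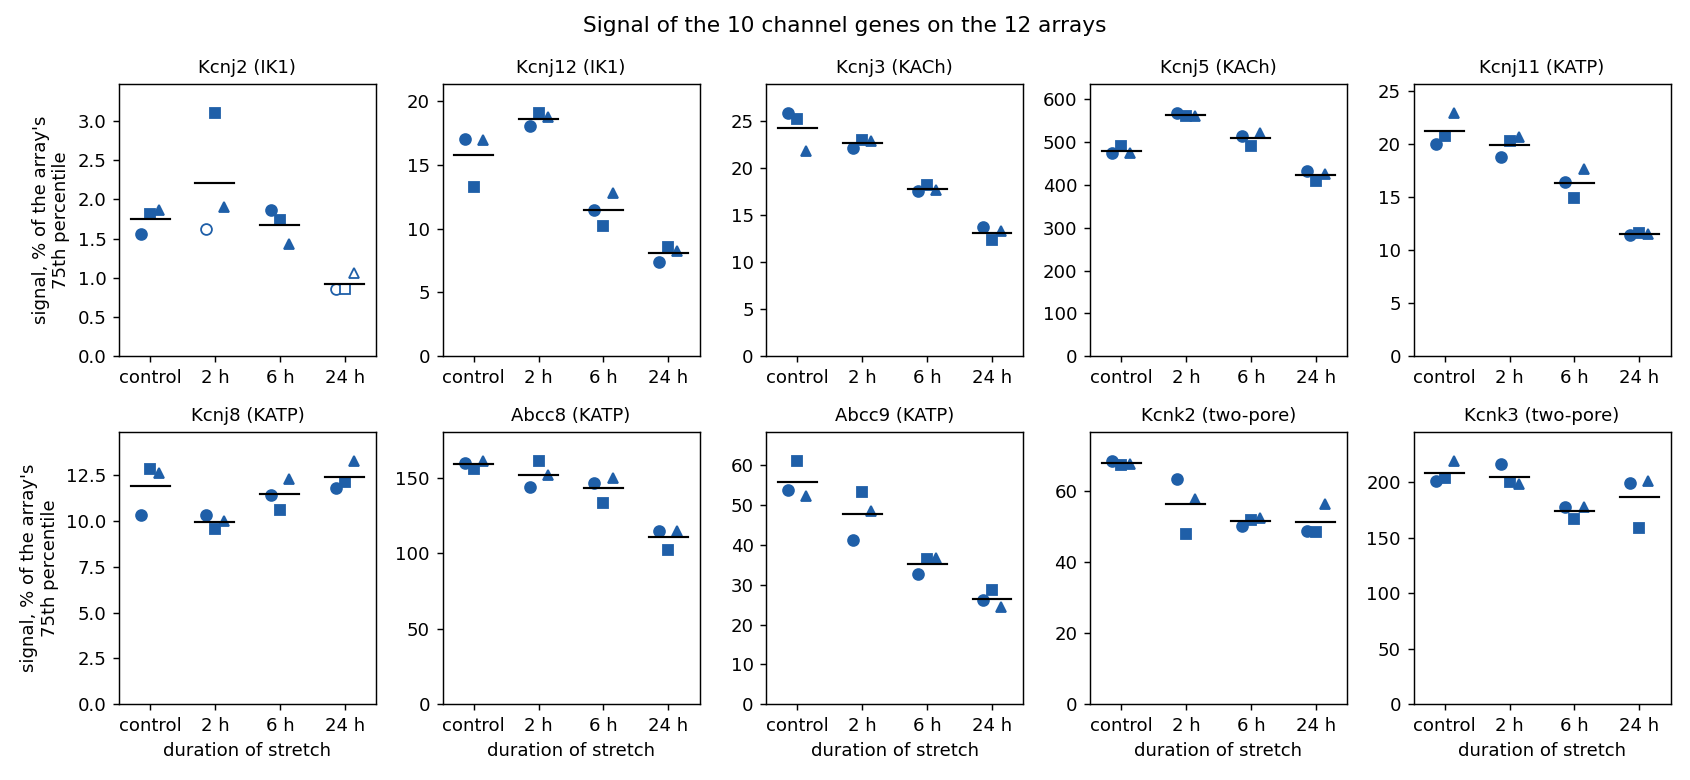
Signal of each channel gene on each of the 12 arrays as percent of the 75th percentile of that array, on axes from 0. Circles, squares and triangles are replicates 1, 2 and 3, open symbols are not well above background, and bars are group means; the 24 h values of Kcnj12, Kcnj3, Kcnj11, Abcc8 and Abcc9 lie below all control values.

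The stretch-gated K2P gene Kcnk2 was lower from 6 h on and then level. Its signal was 68.5, 67.3 and 67.7% on the control arrays, 63.3, 47.9 and 57.7% at 2 h, 50.3, 52.0 and 52.4% at 6 h and 48.7, 48.4 and 56.5% at 24 h. Every stretched array lay below every control array, and the stretched groups overlapped each other. The change was -0.28 ± 0.09 at 2 h (adjusted p = 0.0914), -0.40 ± 0.09 at 6 h (0.0161) and -0.41 ± 0.09 at 24 h (0.00434), and between 6 h and 24 h it was -0.01 ± 0.09 (0.931). Without 2 h replicate 1 the 2 h change was called (-0.37, 0.0422), and without 6 h replicate 1 the 6 h change was not (-0.38, 0.0604). At 24 h the call ended with slide as a block (-0.45, 0.120) and with the array median (-0.22, 0.0769), and with spike-in scaling the value was 0.04 (0.864). A pair of further Kcnk2 probes failed the filter, with 2 of 3 control arrays well above background for each.

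Kcnk3, which encodes the acid-sensitive TASK-1, did not pass the test at any time. Its signal was 201, 204 and 219% on the control arrays, 216, 199.6 and 199% at 2 h, 177, 166.5 and 178% at 6 h and 199.6, 158 and 201% at 24 h. The 6 h arrays lay below all control and 2 h arrays, the 24 h arrays lay below all control arrays, and among them replicate 2 was the lowest. The change was -0.02 ± 0.09 at 2 h (adjusted p = 0.904), -0.26 ± 0.09 at 6 h (0.0652) and -0.17 ± 0.09 at 24 h (0.135). Without 24 h replicate 2 the 6 h change was called at the same size (0.0117), and on slide 1 alone it was -0.27 (0.0454).

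Between stretch times, 5 members were lower at 6 h than at 2 h (Kcnj12, Kcnj3, Kcnj5, Kcnj11 and Abcc9) and 0 higher, against 10.5% of all genes called in either direction, 3.68% called higher and 6.80% called lower. From 6 h to 24 h 7 were lower (Kcnj12, Kcnj2, Kcnj3, Kcnj5, Kcnj11, Abcc8 and Abcc9) and 0 higher, against 25.0% of all genes called, 9.57% called higher and 15.5% called lower. Among the 7, Kcnj2 was not well above background on any 24 h array and passed the filter through other groups. The arrays did not overlap for 7 members in each of these comparisons, against 34.6 and 45.7% of all genes. Over probes 4 and 9 of 14 were lower, against 8.01 and 21.6% of all kept probes called. On slide 2 alone, where 1 array of 6 h stood against 3 of 24 h and no test was made, the difference was -0.67 for Kcnj12, -0.62 for Kcnj11, -0.47 for Abcc9, -0.44 for Abcc8, -0.43 for Kcnj3, -0.64 for Kcnj2 and -0.30 for Kcnj5. Each of these had the sign of its value over both slides. The count at 6 h against 2 h rested on single arrays: it was 1 without 6 h replicate 1, 2 without 2 h replicate 2, 2 h replicate 3 or 6 h replicate 2, and 3 without 6 h replicate 3.

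Ratios of 2 members within an array do not depend on the scaling between arrays, and 6 such ratios, chosen after the values were seen, are given as a description with no test. Kcnj11 over Kcnj8, the pore genes of KATP, was lower by 0.95 on the log2 scale at 24 h, with single arrays at -1.04 to -0.89 against -0.14 to 0.12 in controls. Abcc9 over Kcnj8 was lower by 1.14, and by 1.11 and 1.03 with the dimmer Abcc9 probes, which were near background at 24 h. Both ratios had no overlap between 24 h and control arrays. The sizes moved with the background correction. With normexp the 24 h change was -0.69 for Kcnj11 over Kcnj8, -0.88 for Abcc9 over Kcnj8 and -0.81 for Kcnj3 over Kcnj5. Within slide 1 the 6 h arrays differed from controls by -0.43 for Kcnj11, -0.69 for Abcc9 and -0.11 for Kcnj8, and within slide 2 the 24 h arrays differed from the 6 h array by -0.62, -0.47 and 0.01, so that Kcnj8 had the smallest of these differences on either slide. Kcnj3 over Kcnj5 was lower by 0.70 at 24 h, with -0.32 ± 0.04 (SD, n = 3) already at 2 h, but by 0.56 with the other Kcnj3 probe and 0.48 with the other Kcnj5 probe. That Kcnj3 probe passed the filter through controls alone, so its ratio is no separate evidence of a fall. The Abcc8 to Kcnj11 ratio, of neighbouring genes, was higher by 0.36, or by 0.22 in the series matrix. Abcc9 over Abcc8 was lower by 0.55, or by 0.52 and 0.44 with the dimmer Abcc9 probes. These did not pass the filter through 24 h, so their ratios are no separate evidence of a fall. Kcnk2 over Kcnk3 was -0.24 ± 0.16 (SD, n = 3) at 24 h and -0.26 ± 0.16 at 2 h.

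**Figure D3:**
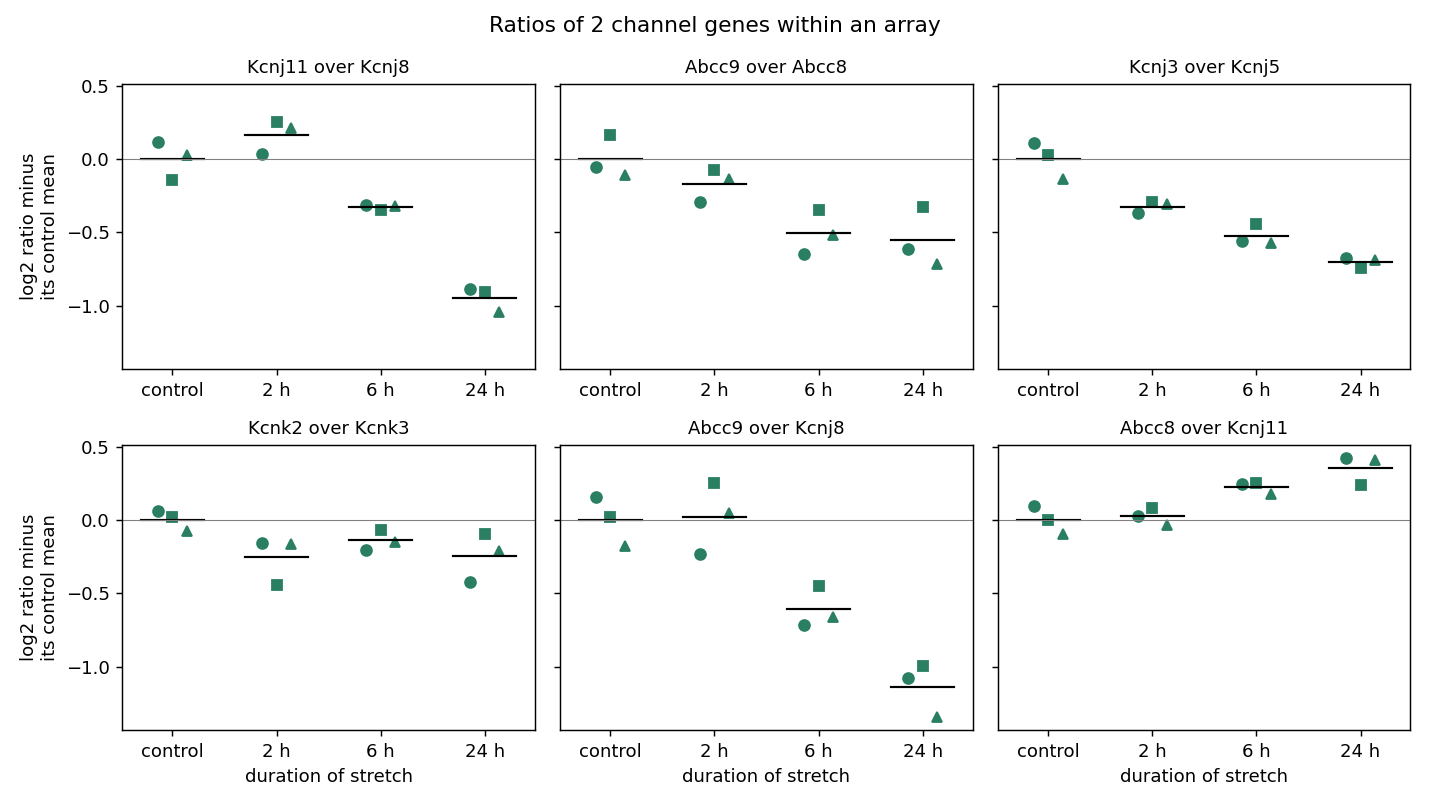
Log2 ratio of 2 channel genes within each array, less the mean of that ratio in controls, for 6 pairs and the 4 groups; circles, squares and triangles are replicates 1, 2 and 3 and bars are group means. Kcnj11 over Kcnj8 and Abcc9 over Kcnj8 lie lowest at 24 h, at means of -0.95 and -1.14.

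Of the other inward rectifiers, 1 of 9 passed the filter on dim signals, and Kcnj1, Kcnj4, Kcnj13 and Kcnj16 were not well above background on any array. The exception, Kcnj14, went from 10.4 ± 0.53% (SD, n = 3) in controls to 14.4 ± 1.9% at 6 h, a log2 change of 0.46 ± 0.11 (adjusted p = 0.0201), but 0.37 with slide as a block (0.0695) and 0.27 with normexp (0.0666). Of the other K2P genes 6 of 12 were tested. At 24 h 1 was higher and 1 lower, against 16.2 and 31.7% of all genes. With spike-in scaling 5 were higher and 0 lower, against 6728 and 630 of the 14376 genes tested. Kcnk13, a halothane-inhibited background channel, went from 16.6 ± 1.1% to 26.7 ± 0.23% at 2 h, 27.0 ± 2.8% at 6 h and 29.9 ± 1.8% at 24 h. Its changes of 0.69 ± 0.08, 0.70 ± 0.08 and 0.85 ± 0.08 were called at each time (0.00215, 8.56e-04 and 1.62e-05) and under each scaling tried, while a dimmer probe gave 0.66, 0.68 and 0.31, not called (0.106, 0.0682 and 0.290 among probes). Kcnk1, the weakly rectifying TWIK-1, was at 4.09 ± 0.37% in controls and 2.48 ± 0.31% at 24 h, a change of -0.73 ± 0.14 (0.00187), but -0.28 with spike-in scaling (0.178) and -0.42 with quantile normalization (0.0638).

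The next list held genes of the receptors and G proteins that open KACh and of Rgs proteins, which act on G proteins. Of its 18 tested genes, 1 was lower at 2 h and 4 were lower at 6 h. At 24 h 5 were higher and 8 lower. Of all genes, 6.10% were lower at 2 h and 11.7% at 6 h, and at 24 h 16.2% were higher and 31.7% lower. The 24 h counts were 8 higher and 4 lower under the array median, 9 and 2 under spike-in scaling and 1 and 3 with slide as a block. Of the 14376 genes tested, 5579 were higher and 2202 lower under the array median, and 6728 and 630 under spike-in scaling. With slide as a block 2045 of all genes were called, 1548 of them lower. At 6 h 1 was higher and 1 lower under the array median, and 2 were lower with slide as a block. With spike-in scaling 0 were called at 2 h and at 6 h. Adora1, the adenosine A1 receptor, was at 27.0 ± 2.0% in controls, 21.6 ± 0.70% at 2 h, 22.6 ± 0.18% at 6 h and 47.3 ± 3.7% at 24 h. It was called lower at 2 h (-0.32 ± 0.07, 0.0173) and 6 h (-0.26 ± 0.07, 0.0276) and higher at 24 h (0.81 ± 0.07, 7.79e-06); at 6 h the value was 0.10 with spike-in scaling (0.651). A second Adora1 probe gave 0.11 ± 0.20 at 24 h (0.681 among probes). Rgs4 and Rgs6, which speed the shut-off of KACh, and Rgs5 of the same family fell at 24 h by 0.92 ± 0.14 (3.81e-04), 0.89 ± 0.13 (3.55e-04) and 0.72 ± 0.11 (3.74e-04). Rgs5 did not pass under spike-in scaling (-0.27, 0.183), and a second Rgs6 probe did not pass (-0.29 ± 0.16, 0.182 among probes). The other Rgs genes tested went the other way. Mean signals of Rgs2, Rgs3 and Rgs10 were 723, 307.5 and 90.85% in controls and 840.2, 350.9 and 104.8% at 24 h.

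Of 14 tested scaffold and partner genes, 3 were higher and 5 lower at 24 h, against 16.2 and 31.7% of all genes. The counts were 5 and 1 under the array median, 6 and 0 under spike-in scaling and 1 and 1 with slide as a block. Of the 14376 genes tested, 5579 were higher and 2202 lower under the array median, and 6728 and 630 under spike-in scaling. With slide as a block 2045 of all genes were called, 1548 of them lower. Popdc2, a membrane protein that binds cyclic AMP and TREK-1, was higher at 2 h (0.51 ± 0.07, adjusted p = 0.00291, but 0.55 and 0.142 with spike-in scaling), 6 h (0.39 ± 0.07, 0.00490) and 24 h (0.29 ± 0.07, 0.00609), the last not with slide as a block (0.28, 0.191). Lin7c, a scaffold of inward rectifiers, rose at 24 h by 0.42 ± 0.06 (3.47e-04) and S100a10, a carrier of TASK-1 to the surface, by 0.39 ± 0.07 (0.00158; 0.29 and 0.188 with slide as a block). Sptbn4, a spectrin, was lower at 6 h (-0.47 ± 0.11, 0.0196; -0.12 and 0.574 with spike-in scaling). Inward rectifiers need the membrane lipid PIP2. Of 15 genes that make or cleave it 1 was higher and 9 lower at 24 h, against 16.2 and 31.7% of all genes. The counts were 2 and 3 under the array median, 2 and 1 under spike-in scaling and 1 and 2 with slide as a block. For all genes, the counts in these settings are those given with the scaffold genes. The phospholipase gene Plcd4 rose by 1.25 ± 0.09 (2.57e-06), from 21.7 ± 2.2% to 51.5 ± 4.4%, and Plcb4 fell by 0.86 ± 0.06 (2.52e-06), from 22.4 ± 1.0% to 12.4 ± 0.92%. Plcb1 (-0.51 ± 0.11, 0.00341) and Plcg1 (-0.49 ± 0.06, 1.23e-04) were lower too, but -0.06 (0.766) and -0.05 (0.826) with spike-in scaling.

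Across the 12 arrays, which differ by group and so share the time course, Pearson's r of log2 signals was 0.96 between Kcnj11 and Abcc8, 0.95 between Abcc9 and Kcnj3 and 0.94 between Kcnj11 and Kcnj3. Kcnj8 correlated with these genes at -0.38 (Kcnj11), -0.39 (Abcc9 and Abcc8) and -0.50 (Kcnj3). The genes most like Abcc9 over the 12 arrays were Bbs2 (0.98), Atg10 (0.98) and Kcnh2 (0.97), the last the gene of the rapid delayed rectifier, with a 24 h change of -0.85. Those most like Kcnj11 were Tmco4 (0.99), Myo16 (0.98) and Car14 (0.98), and those most like Kcnj12 were Stom (0.98), Lmo2 (0.97) and RT1-A2 (0.97). Kcnj3 was closest to Ptprs (0.98), Ccl4 (0.98) and Sqor (0.98), and Abcc8 to Pex7 (0.98) and Atp6v0d2 (0.97), of which Ccl4 and Atp6v0d2 changed by -2.53 and -2.31 at 24 h. Kcnj5 was closest to Map1lc3b (0.97), Ctdsp1 (0.97) and Txn2 (0.97), Kcnk2 to Lrrc45 (0.96), Zfp74 (0.94) and Gsdmd (0.93), and Kcnj2 to Akap11 (0.95), Cdh4 (0.95) and Efr3a (0.94).

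**Figure D4:**
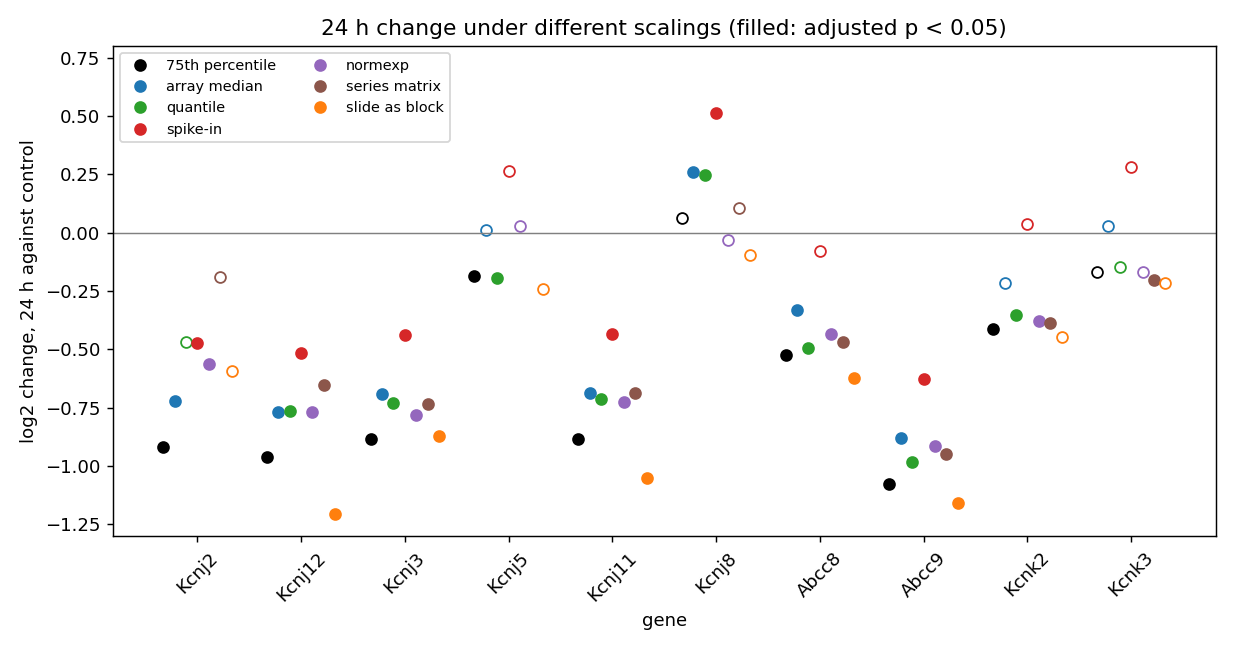
Log2 change of each channel gene at 24 h against control under the main scaling by the 75th percentile and under 6 other settings; filled points have an adjusted p below 0.05. Kcnj12, Kcnj3, Kcnj11 and Abcc9 are filled and below 0 in all 7 settings, while Kcnj5 (which has no series matrix value), Kcnj8, Kcnk2 and Kcnk3 have points on both sides of 0.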

How the data were processed

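The 12 RNA samples were each read on 1 single-colour Agilent array with 60-base probes. Per the file headers, Feature Extraction 11.0.1.1 made the deposited processed signal, an intensity on a linear scale; version 10.7.3.1 is the one in the submitters' processing notes. The deposited mean and background signals are intensity values too. The authors' series matrix holds values for 28902 probes, with a scaling that no label or header states, and was used as 1 of the alternatives.

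Signals were taken as log2, outlier spots (224 to 359 of 58717 an array) were left out, spots of a probe were averaged and the 75th percentile of the array was subtracted. A probe counted as well above background where most or an equal share of its spots did, and probes so flagged on all 3 arrays of at least 1 group were kept (18997 of 30367). Probes were named through accession (18005), symbol (2668), synonym (547) or the file (4963), and 4184 had no name. The brightest probe stood for each of 14376 genes. Group means were fitted over the 12 arrays with limma 3.58.1 (lmFit, eBayes) in R 4.3.3, with jsonlite 2.0.0; p-values are two-sided and adjusted by Benjamini-Hochberg over all genes, or over all kept probes where so stated, and calls were made below 0.05. Normexp used an offset of 50, and the 10 spike-in probes include dim ones. The number of arrays limits the precision.

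The fit was tested on simulated data that held no slide effect and no scaling difference, so that test cannot speak to either. The members and gene lists were chosen with earlier results of these data known. All probes of the members were described, with at most 4 called genes of each other list, by size of change, and the 3 genes most correlated with each called member, of which 1 is not reported here. Alternatives were other scalings, background corrections, filters, probe rules, blocks and leaving out each array; ratios were added after the values were seen.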

Additional observations from a re-analysis of the deposited data

Results flagged for a closer look

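The following members had effects against control that differed between successive stretch times, by the limma test of that difference over all genes; each pair of effects shares the control arrays. Between 2 h and 6 h the log2 change was -0.43 for Abcc9 (adjusted p = 0.0278), -0.29 for Kcnj11 (0.0314), -0.70 for Kcnj12 (0.00700), -0.35 for Kcnj3 (0.0125) and -0.15 for Kcnj5 (0.0494). The Kcnj5 call held in 2 of 24 settings, with values up to 0.16 (spike-in scaling), those of Abcc9 and Kcnj11 in 14 of 25, with values up to -0.12 and 0.020, that of Kcnj3 in 21 of 25 and that of Kcnj12 in 24 of 25. Between 6 h and 24 h it was -0.37 for Abcc8 (0.00235), -0.42 for Abcc9 (0.0130), -0.50 for Kcnj11 (5.99e-04), -0.51 for Kcnj12 (0.00694), -0.85 for Kcnj2 (0.0128), -0.44 for Kcnj3 (8.73e-04) and -0.27 for Kcnj5 (0.00126). Kcnj2 was well above background on 0 of 3 arrays at 24 h, so that its value is limited by the background. With the floor used for the comparison with controls, Kcnj2 was 1.5-fold lower than at 6 h, which is not a lower limit. Its call ended with normexp (-0.38, adjusted p = 0.0641), quantile normalization (-0.53, 0.113), the series matrix (-0.22, 0.136) and slide as a block (-0.64, 0.231).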

How the results depend on the processing

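The 24 h changes of Kcnj12, Kcnj3, Kcnj11 and Abcc9 kept their direction and stayed past the threshold in all settings run for them, and that of Abcc8 in all but spike-in scaling. Against the main setting, signs turned in 6 values that were past the threshold in it: Kcnj5 at 24 h was 0.011 with the array median, 0.26 with spike-in scaling and 0.030 with normexp, Kcnk2 at 24 h was 0.036 with spike-in scaling, and at 6 h against 2 h Kcnj11 was 0.020 and Kcnj5 0.16 with spike-in scaling. The cause was not tested. Values not past the threshold in the main setting turned as well, among them Kcnj8 at 24 h (-0.096 with slide as a block, against 0.51 and called with spike-in scaling) and, with spike-in scaling, Kcnk3 at 6 h (0.093), 24 h (0.28) and 6 h against 2 h (0.073).

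Of the members, 1 was called at 2 h, but 0 with spike-in scaling or with only the groups compared in the fit; 5 at 6 h, but 0 with spike-in scaling; 8 at 24 h, but 5 with slide as a block; and 7 at 24 h against 6 h, but 1 with spike-in scaling. At 6 h against 2 h 5 were called, but 3 with the array median, quantile normalization, normexp or slide as a block, 2 with no filter, the mean over probes or only the groups compared, and 1 with spike-in scaling or slide 1 alone. Leaving out single arrays gave 1 to 2 members at 2 h, 3 to 6 at 6 h, 8 at 24 h, 1 to 6 at 6 h against 2 h and 6 to 8 at 24 h against 6 h.

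Of all genes, 1322 were called at 2 h, but 112 with spike-in scaling, 839 with normexp, 644 with no filter, 813 on slide 1 alone and 463 with only the groups compared (665 to 1365 without single arrays). At 6 h 2408 were called, but 1385 with no filter, 1600 with slide as a block and 1350 on slide 1 alone (1195 to 2536). At 24 h 6888 were called, but 2045 with slide as a block (5773 to 7070). At 6 h against 2 h 1506 were called, but 682 with normexp, 442 with no filter, 599 with slide as a block, 238 on slide 1 alone and 362 with only the groups compared (345 to 1577). At 24 h against 6 h 3601 were called, but 798 with spike-in scaling and 1101 with slide as a block (2402 to 3739). The split of calls moved with the scaling: at 24 h 2324 genes were higher and 4564 lower, against 5579 and 2202 with the array median, 3338 and 2929 with quantile normalization and 6728 and 630 with spike-in scaling.

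Replicate numbers did not pair the samples: over 18 pairs of same-numbered arrays the correlation of deviations from the group means was -0.11 to 0.10. With the replicate block 1, 5, 8, 4 and 7 members and 1030, 2156, 6639, 1139 and 3347 genes were called, in the order 2 h, 6 h and 24 h against control, 6 h against 2 h and 24 h against 6 h.

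The slide block rests on the 6 h group alone, and slide 1 alone gives no value at 24 h. Kcnj5 had no series matrix value. Signal over background limits Kcnj2 and the dimmer probes of Abcc9, Kcnj3 and Kcnk2.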

Other observations

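A pair of Kcnk2 probes that failed the filter had low signals. The one whose sequence holds an open reading frame over its whole length stood at 1.51 to 2.00% of the 75th percentile on the control arrays and at 0.569 to 9.49% at 2 h, with the highest value on replicate 2. The other lay at 0.866 to 1.60% in controls and 0.408 to 0.855% at 24 h.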
